A study of Mus musculus with 6 samples.

Results

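The transcription factors and cofactors that set brown adipocyte identity were examined as a group of 10 genes in brown adipose tissue (BAT). The genes were chosen by symbol as *Prdm16*, *Ehmt1*, *Ebf2*, *Zfp516*, *Zic1*, *Tbx15*, *Cebpa*, *Cebpb*, *Irf4* and *Ppargc1b*. No rule on their measured values was applied, but earlier results of these data were known at the time. They were read by 14 probes on an array of 56605 probes, of which 33767 (59.7%) could be assigned to 1 of 23462 genes. The study compared BAT of 3 wild-type (WT) mice with BAT of 3 mice lacking the microRNA miR-22 (KO), to find which transcripts differ when miR-22 is missing. All mice were males 8 weeks old per the study's methods, and each array carried RNA of 1 mouse, labelled with a single dye. The deletion in the KO mice was global, so miR-22 was missing from every cell type of the tissue and from every other organ. The controls are called littermates in the study, but no source used here ties a given WT mouse to a given KO mouse, so the mice were compared unpaired and p-values measure the spread between these 6 samples, and the small number of arrays limits the precision.

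Brown adipocytes burn fuel to make heat, and a small circuit of nuclear proteins keeps them from taking on a muscle or white fat program. PRDM16 works with the histone methyltransferase EHMT1 and with C/EBP factors to switch on brown fat genes, EBF2 opens chromatin at those genes and recruits the nuclear receptor PPARγ, and ZFP516 binds the *Ucp1* promoter after cold exposure. ZIC1 and TBX15 mark the brown adipocyte lineage of certain depots, IRF4 carries the response to cold and fasting into gene expression, and PGC-1β, the product of *Ppargc1b*, is a coactivator of mitochondrial biogenesis.

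The microRNA missing from the KO mice has 2 mature arms, which are shown because they are the RNAs that the KO mice lack. Both are given 5′ to 3′ from RefSeq (GRCm38.p6, plus strand) with the seed, bases 2 to 8, in capitals. The 3p arm lies at chr11:75463772-75463793 and the 5p arm at chr11:75463734-75463755.
mmu-miR-22-3p: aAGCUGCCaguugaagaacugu
mmu-miR-22-5p: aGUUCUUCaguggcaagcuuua

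No array probe read miR-22 itself. The transcript of its host gene, *Mir22hg*, gave scaled log2 signals of 1.20, 1.69 and 1.22 in WT mice and 2.02, 2.11 and 2.23 in KO mice. It was higher in every KO mouse (log2 difference 0.75, SE 0.19, limma adjusted p = 0.136), but where its probe lies relative to the deleted segment is not known, so it does not check the labels. A scaled log2 signal here is the log2 intensity of a probe minus the 75th percentile of its own array, so 0 marks a fairly bright probe and each unit is a doubling. These values compare mice for 1 probe and cannot rank different genes.

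The arrays had 75th percentiles of intensity between 1435 and 2633. The arrays of WT mouse 3 and KO mouse 1 stood apart, with 17.1% and 15.1% of spots carrying the scanner's outlier marks against 4.87% to 6.12% on the other 4, and KO mouse 1 had 55.8% of spots well above background against 62.3% to 66.5% elsewhere. Marked spots were left out. Brown adipocyte markers were above background in every mouse, 10 of 10 genes, with list means of 3.64 to 4.0 in WT and 3.14 to 3.77 in KO mice, and 10 of 10 general adipocyte markers were above background on every array too. Skeletal muscle transcripts differed widely: averaged over 20 muscle genes, the level was 2.31, 1.49 and -4.46 in WT mice and -0.01, 3.39 and 1.45 in KO mice. Of 15 lymphocyte markers, *Ms4a1* and *Blk* were never above background, and the list means were -5.08, -4.67 and -4.98 in WT and -4.51, -4.67 and -4.64 in KO mice. Every KO mean lay above every WT mean, although WT mouse 2 and KO mouse 2 were almost level. These means take in markers that were not above background on every array. Of the 7 that were, *Cd3e*, *Cd3d*, *Cd2* and *Lck* were highest in WT mouse 2. *Cd3g* was highest in KO mouse 2 and *Cd79b* in KO mouse 1, and *Cd4* was higher in every KO mouse. Of 10 white adipocyte markers, *Tcf21* and *Hoxc10* were never above background, and the list means were -3.0 to -2.89 in WT and -2.78 to -2.42 in KO mice. *Wfdc21* and *Nnat* were higher and *Tafa1* lower in every KO mouse, while the other detected white markers overlapped. The part that these other cells play in the values below was not tested, except where a fit with the muscle mean is given. In bulk tissue fewer cells of a type and less RNA per cell cannot be told apart.

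None of the identity factors was called different between WT and KO mice. Of the 10 genes, 9 could be tested on their brightest probe, and 0 were lower and 0 higher at an unadjusted p under 0.05 by limma. The mean was lower in KO for 6 genes and higher for 3, with a median log2 difference of -0.02 against -0.03 over all 14711 genes tested. Over all genes, 7.39% were lower and 9.23% were higher by the same rule, 1087 and 1358 genes, and 0.102% (15 genes) passed Benjamini-Hochberg adjustment. The SAM test and the methods' t-test also called 0 of the 9, before and after adjustment. The lowest adjusted p of the 9 genes was 0.491, for *Irf4*. The missing calls do not show equal expression, because the 95% intervals of the differences reached at least 0.30 on the log2 scale on both sides of 0 for every gene other than *Irf4* and *Cebpa*, whose nearer limits were 0.14 and -0.29.

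**Figure D1:**
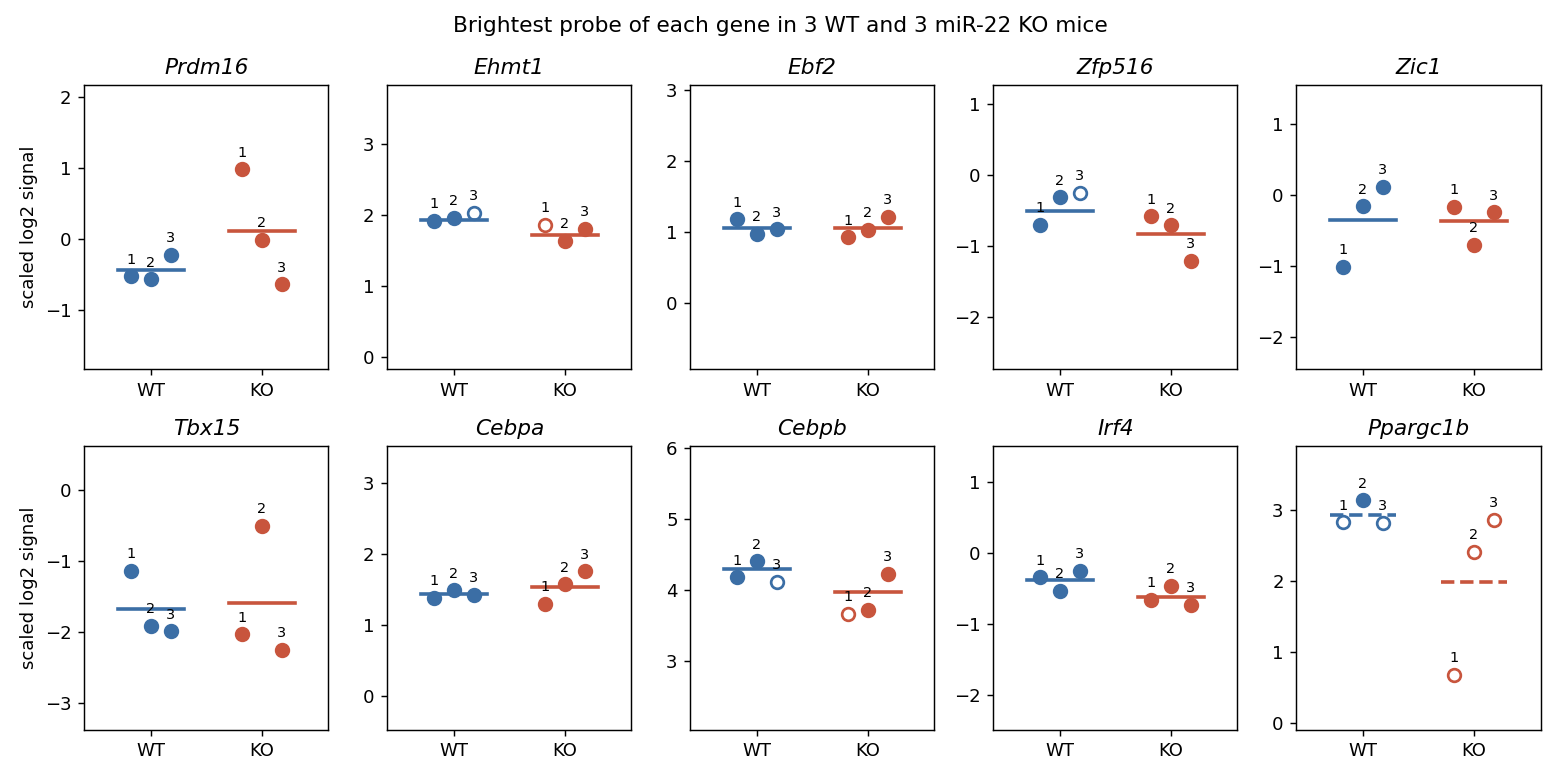
Scaled log2 signal (vertical axis) of the brightest probe of each gene in the 3 WT (blue) and 3 KO (red) mice, numbered by mouse; bars are group means, open points are spots with outlier marks, which the means leave out except for *Ppargc1b* (dashed bars). Every panel spans 4 log2 units, and *Prdm16*, *Tbx15* and *Ppargc1b* show the widest spread, each with 1 KO mouse apart from the rest, at 0.98, -0.50 and 0.68.

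*Prdm16*, the factor that turns myoblast-like precursors into brown adipocytes, varied widely between KO mice. Its signals were -0.53, -0.57 and -0.22 in WT and 0.98, -0.02 and -0.64 in KO mice. KO mouse 1 lay above all others and KO mouse 3 below all others, so the groups overlapped. The mean was 0.55 higher in KO (SE 0.39, 95% interval -0.36 to 1.46, limma adjusted p = 0.510), a 1.46-fold ratio that was within the spread between mice. The SD of *Prdm16* was 0.19 in WT mice, near the median of all genes (0.20, at percentile 46.8), and 0.82 in KO mice, at percentile 95.2 of the KO spreads. The difference rested on single mice: without KO mouse 1 it was 0.11, and without KO mouse 3 it was 0.92 with an unadjusted p of 0.028 by limma (adjusted p = 0.281). None of its spots was marked.

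*Ehmt1*, which encodes the methyltransferase partner of PRDM16, was the only tested member whose KO values all lay below the WT values. The unmarked signals were 1.92 and 1.96 in WT and 1.64 and 1.81 in KO mice, since WT mouse 3 and KO mouse 1 carried marks and dropped out. The difference was -0.22 (SE 0.20, 95% interval -0.73 to 0.30, limma adjusted p = 0.631). With the marked spots kept the WT values were 1.92, 1.96 and 2.03, the KO values 1.86, 1.64 and 1.81, and the difference -0.20. The groups stayed apart with 3 mice on each side,. Such separation was common on these arrays: every KO value lay below every WT value for 17.2% of the genes tested and above it for 13.8%, counting genes with 2 values in a group.

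*Ebf2*, a marker and driver of committed brown preadipocytes, was the most even of the group. It gave 1.19, 0.98 and 1.04 in WT and 0.93, 1.03 and 1.22 in KO mice. The ranges covered each other and the difference was -0.005 (SE 0.16, 95% interval -0.37 to 0.36, adjusted p = 0.991 by limma). *Zfp516*, the cold-induced zinc finger factor, was read by 2 probes that were both lower on average in KO mice. Its brighter probe gave -0.70 and -0.31 in WT mice 1 and 2, was marked in WT mouse 3, and gave -0.58, -0.71 and -1.21 in KO mice, a difference of -0.33 (SE 0.26, limma adjusted p = 0.563). Its dimmer probe gave -3.22, -3.11 and -3.34 in WT and -3.46, -3.62 and -3.27 in KO mice. KO mouse 3 was lowest on the brighter probe but highest of the KO mice on the dimmer, so the probes did not order the mice alike. On the dimmer probe the difference was -0.22 (unadjusted p = 0.213 by limma). After quantile normalization that probe was lower in every KO mouse, by -0.39 with an unadjusted p of 0.041 and an adjusted p of 0.287 by limma.

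The lineage markers varied between mice in both groups. *Zic1*, a zinc finger gene of the interscapular depot, gave -1.01, -0.15 and 0.12 in WT and -0.16, -0.69 and -0.24 in KO mice. WT mouse 1 was lowest and WT mouse 3 highest, so the KO values lay inside the WT range, and the difference was -0.02 (SE 0.31, limma adjusted p = 0.983). *Tbx15*, a T-box gene expressed in brown adipocytes and in glycolytic muscle fibres, gave -1.14, -1.91 and -1.99 in WT and -2.03, -0.50 and -2.25 in KO mice. WT mouse 1 and KO mouse 2 stood above the other 4, and the group difference was 0.08 (SE 0.48, 95% interval -1.04 to 1.21, limma adjusted p = 0.941). The other *Tbx15* probe was not well above background on any array. The SD of *Tbx15* in KO mice, 0.95, lay at percentile 96.7 of all genes, and that of *Zic1* in WT mice, 0.59, at percentile 93.4.

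The mice with high *Tbx15* were those with the most skeletal muscle transcript. WT mouse 1 and KO mouse 2 had the highest muscle means (2.31 and 3.39), and the same mice had the lowest *Zic1*. Over the 6 mice *Tbx15* and the muscle mean gave r = 0.57 (two-sided exact permutation p = 0.238) and rho = 0.77 (exact permutation p = 0.103), and *Zic1* gave r = -0.75 (exact permutation p = 0.0778) and rho = -0.77 (exact permutation p = 0.103). After adjustment over the 10 genes compared these p-values were 0.760 and 0.514 for *Tbx15* and 0.618 and 0.514 for *Zic1*, so neither relation passed. Without the 2 mice farthest from the median muscle mean, WT mouse 3 and KO mouse 2, r was 0.64 for *Tbx15* and -0.72 for *Zic1* over the other 4. Over those 4 mice r ran from -0.89 for *Prdm16* to 0.88 for *Ppargc1b* across the 10 genes, so the values of *Tbx15* and *Zic1* were not the largest. In a fit of genotype with the muscle mean as a covariate, which uses the relation within the groups, the KO difference was -0.19 for *Tbx15*, 0.22 for *Zic1* and 0.71 for *Prdm16*, all with adjusted p above the threshold by limma.

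**Figure D2:**
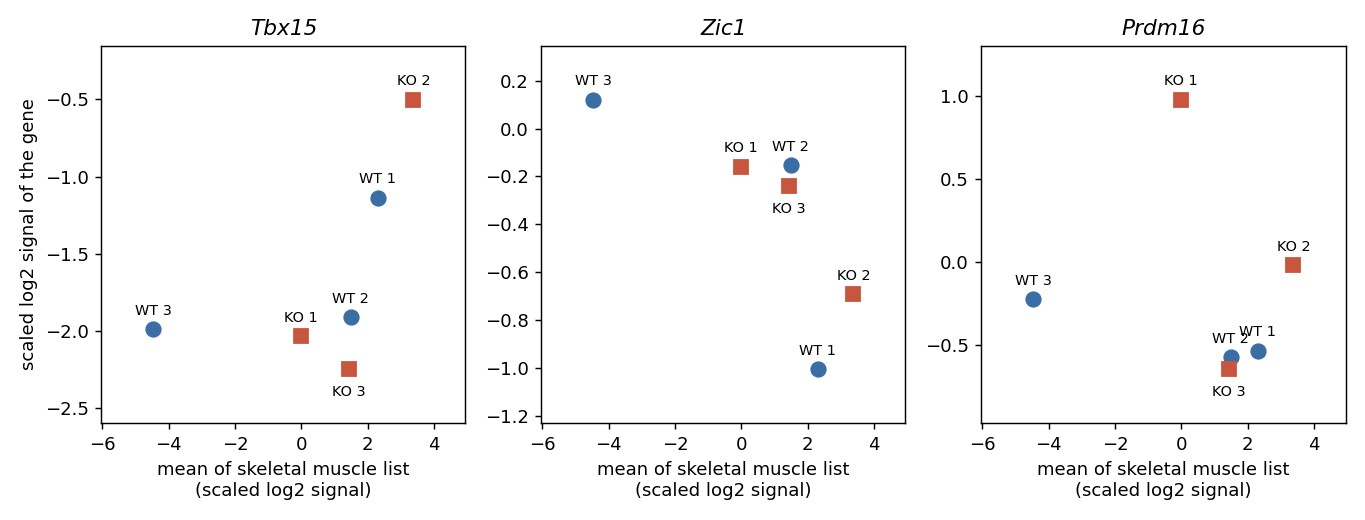
Scaled log2 signal of *Tbx15*, *Zic1* and *Prdm16* (vertical axes) against the level of skeletal muscle transcripts, averaged over 20 genes on that scale (horizontal axes) in each WT (blue circles) and KO (red squares) mouse. *Tbx15* was highest and *Zic1* lowest in WT mouse 1 and KO mouse 2, the mice with most muscle transcript, while the high *Prdm16* value of KO mouse 1 fell at a muscle mean of -0.01.

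The C/EBP factors, basic leucine zipper proteins that start and hold adipocyte differentiation, did not pass the test either. *Cebpa* gave 1.39, 1.49 and 1.43 in WT and 1.30, 1.58 and 1.76 in KO mice. The WT mice were close together (SD 0.05, percentile 5.40 of all genes) and lay within the KO range, and the difference was 0.11 (SE 0.17, 95% interval -0.29 to 0.51, limma adjusted p = 0.771). *Cebpb* gave 4.18 and 4.41 in WT mice 1 and 2 and 3.73 and 4.23 in KO mice 2 and 3, with the other mouse of each group marked. The difference was -0.31 (SE 0.26, 95% interval -0.98 to 0.35, limma adjusted p = 0.585). With marked spots kept the WT values were 4.18, 4.41 and 4.12 and the KO values 3.67, 3.73 and 4.23, where KO mouse 3 lay within the WT range and KO mice 1 and 2 below it (difference -0.36, limma adjusted p = 0.383). Without KO mouse 3 it was -0.54, with an unadjusted p of 0.019 and an adjusted p of 0.248 by limma. After quantile normalization with marked spots left out it was -0.08.

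*Irf4*, the interferon regulatory factor that partners with PGC-1α in the cold response, was read by 2 probes that moved in opposite directions. The brighter probe gave -0.35, -0.54 and -0.26 in WT and -0.66, -0.46 and -0.73 in KO mice. KO mouse 2 fell within the WT range, and the difference was -0.24 (SE 0.16, 95% interval -0.62 to 0.14, limma adjusted p = 0.491). The dimmer probe gave -4.33, -4.57 and -4.38 in WT and -4.13, -4.07 and -3.94 in KO mice. There every KO mouse was above every WT mouse, with a difference of 0.38 (SE 0.15, unadjusted p = 0.040 and adjusted p = 0.279 by limma), which was 0.17 after quantile normalization (unadjusted p = 0.265 by limma). Within an array the brighter probe exceeded the dimmer one by 4.05 ± 0.07 (SD, n = 3) in WT and by 3.43 ± 0.20 (SD, n = 3) in KO mice, a gap that scaling each array by 1 value leaves as it is. The gap was smaller in all 3 KO mice by 0.62 (two-sided exact permutation p = 0.1, the smallest that 3 against 3 mice allow, and 0.3 after adjustment over the 3 probe pairs compared). After quantile normalization, which can change such a gap, it was smaller by 0.43 and again in all 3 KO mice. The pair was singled out after its values were seen, and the intensities of the dimmer probe were only 60.5 to 157.

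*Ppargc1b* could not be tested, because its brighter probe carried outlier marks on 5 of 6 arrays and its other probe on 3. With marked spots kept the brighter probe gave 2.83, 3.14 and 2.83 in WT and 0.68, 2.42 and 2.86 in KO mice. KO mouse 1 was far below the other 5 mice on a marked spot, and KO mouse 3 lay within the WT range. The difference was -0.95 (SE 0.52, 95% interval -2.18 to 0.29, limma adjusted p = 0.386), and without KO mouse 1 it was -0.29. The other probe gave 1.68, 1.79 and 1.96 in WT and 1.27, 1.82 and 1.71 in KO mice with marked spots kept, a difference of -0.21 (SE 0.19, limma adjusted p = 0.591). KO mouse 1 was again the lowest, here on an unmarked spot. With marked spots kept 0 of the 10 members were called in either direction by limma, where 9.53% of 16110 genes were called lower and 8.75% higher.

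**Figure D3:**
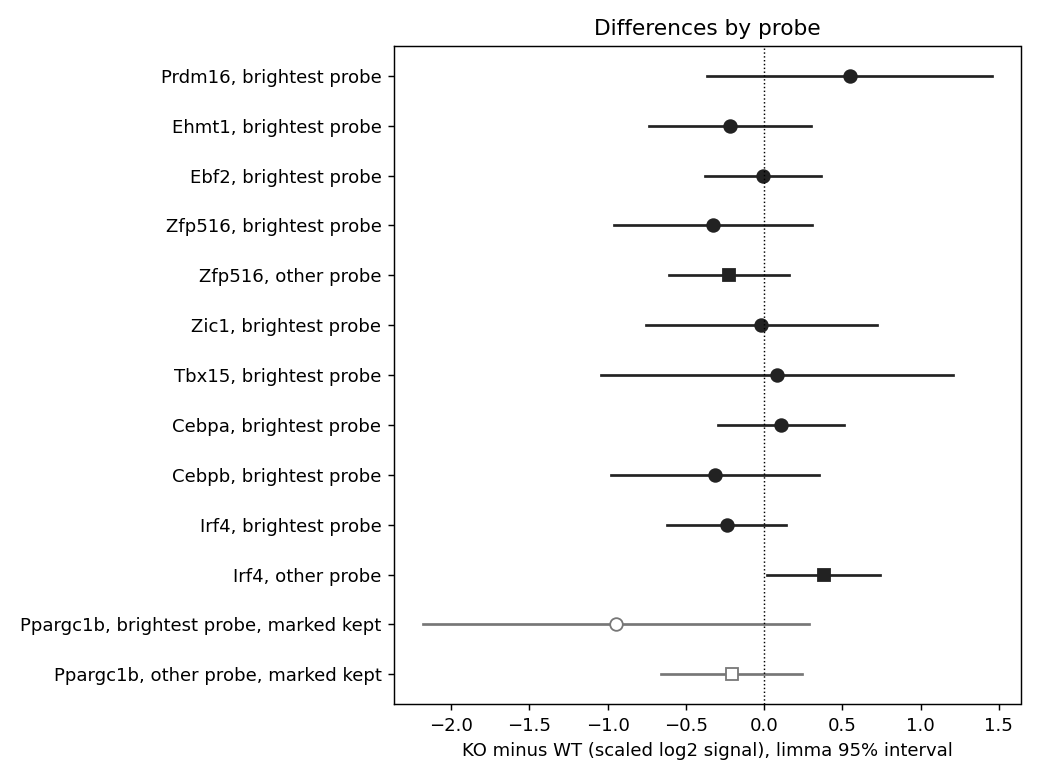
KO minus WT difference in scaled log2 signal (horizontal axis) for each probe of the identity factors, with lines for limma's 95% interval; circles are the brightest probe of a gene, squares the other, and open grey symbols *Ppargc1b* with marked spots kept. Every interval covers 0 other than that of the dimmer *Irf4* probe (0.02 to 0.74), which sits opposite the brighter *Irf4* probe.

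The promoters of *Cebpa* and *Cebpb* are shown as examples of the regulatory sequence of the group, since both paralogs hold the letters TATAAA. RefSeq windows of 300 bases around the start site were held for 6 of the 10 genes, *Prdm16*, *Ehmt1*, *Zic1*, *Cebpa*, *Cebpb* and *Irf4* (GRCm38.p6). Both are printed 5′ to 3′ on the plus strand, *Cebpa* at chr7:35119043-35119342 and *Cebpb* at chr2:167688665-167688964, with capitals on matches to the motifs searched. TATAAA begins at base 221 of the *Cebpa* window, at -30 from the annotated start site and so upstream of it. In the *Cebpb* window it begins at base 272, at 21 from the start site and so downstream of it.
*Cebpa*: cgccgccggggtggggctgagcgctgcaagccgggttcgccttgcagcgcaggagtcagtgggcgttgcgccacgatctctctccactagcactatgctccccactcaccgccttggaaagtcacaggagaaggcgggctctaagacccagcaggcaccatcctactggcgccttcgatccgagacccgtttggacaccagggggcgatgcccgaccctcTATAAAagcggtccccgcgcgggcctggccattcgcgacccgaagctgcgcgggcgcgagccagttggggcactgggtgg
*Cebpb*: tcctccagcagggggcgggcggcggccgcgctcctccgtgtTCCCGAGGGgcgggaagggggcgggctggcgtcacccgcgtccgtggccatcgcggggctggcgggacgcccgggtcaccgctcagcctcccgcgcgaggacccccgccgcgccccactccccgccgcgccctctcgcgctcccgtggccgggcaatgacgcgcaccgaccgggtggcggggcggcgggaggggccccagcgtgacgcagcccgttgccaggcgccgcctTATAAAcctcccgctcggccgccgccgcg

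Letters of 6 motifs were searched on both strands. TATAAA was found in 3 of the 6 windows (*Cebpa*, *Cebpb* and *Irf4*) and in 13.6% of 32851 RefSeq windows, and TCCCNNGGG, a core of the EBF motif, in 1 (*Cebpb*) and 6.56%. The C/EBP letters TTGCNNAA (10.8% of all windows), the IRF letters GAAANNGAA (8.56%), the T-box letters AGGTGTGA (1.28%) and the cyclic AMP response element TGACGTCA (1.79%) were in 0 of the 6. The windows held 61.0% to 80.7% G and C against a median of 52.7%, and *Cebpb* was richest with 50 CG pairs. These matches are a description of letters and not of binding sites.

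The surrounding circuit was described by 5 further lists of genes, read in the same fit, and their counts stand beside shares of 7.39% lower and 9.23% higher over all genes. Partners of the identity factors, such as corepressors and chromatin enzymes, had 16 of 18 genes testable, with 1 lower, 1 higher and a median log2 difference of -0.11. *Ehmt2*, the paralog with which EHMT1 forms a histone methyltransferase complex, gave 1.68, 1.76 and 1.74 in WT and 1.32, 1.25 and 1.32 in KO mice. It was lower in every KO mouse by -0.43 (SE 0.14, unadjusted p = 0.017, adjusted p = 0.201 by limma). *Dpf3*, a chromatin remodelling subunit that works with EBF2, was 0.66 higher (adjusted p = 0.196 by limma), with every KO mouse above every WT mouse. *Mecom*, the closest relative of *Prdm16*, differed by 0.20 with overlapping groups and by -0.04 after quantile normalization (-0.15 after normexp background correction).

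Upstream regulators and coactivators had 20 of 22 genes testable, with 3 lower and 1 higher (15% and 5%, median -0.24). With marked spots left out, 0 were lower without WT mouse 1 or WT mouse 2 (14 genes testable each, medians -0.11 and -0.13). Without KO mouse 2, 0 of 17 were lower and 3 higher, and 1 of 20 was lower without KO mouse 1. Without WT mouse 3 and without KO mouse 3, 2 and 3 were lower. With marked spots kept 22 genes were testable, with 5 lower and 1 higher. Leaving out a mouse there gave 4 to 6 lower, 0 to 1 higher and medians of -0.35 to -0.22. With marked spots left out and all mice in the fit, the 3 lower genes were *Nr4a1*, *Esrra* and *Rxrg*. *Nr4a1*, an immediate early nuclear receptor, was at -1.33, *Esrra*, which drives mitochondrial genes, at -0.53, and the retinoid receptor *Rxrg* at -0.52 (limma adjusted p = 0.103, 0.292 and 0.303). *Nr4a1* and *Rxrg* rested on 2 mice per group, and with all 3 kept *Nr4a1* was -0.62 with overlapping groups while *Rxrg* was -0.56 and lower in every KO mouse. The forkhead gene *Foxc2* was higher by 0.41 (limma adjusted p = 0.255). *Pparg*, the receptor that EBF2 and PRDM16 work with, gave 4.02, 4.22 and 4.06 in WT and 3.69, 3.59 and 4.03 in KO mice. KO mice 1 and 2 lay below the WT mice and KO mouse 3 within their range (difference -0.33, SE 0.17, adjusted p = 0.389 by limma). *Ppargc1a*, the cold-induced coactivator, was testable only with marked spots kept, with 3.76, 3.39 and 3.52 in WT and 2.95, 2.87 and 3.09 in KO mice. It was lower in every KO mouse by -0.59 (SE 0.16, unadjusted p = 0.008, adjusted p = 0.153 by limma), and by -0.38 after quantile normalization with an unadjusted p of 0.067 by limma.

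Repressors of the brown program had 12 of 14 genes testable with 1 lower, the retinoblastoma gene *Rb1* at -0.42, and 1 higher, its relative *Rbl1* at 0.76 (limma adjusted p = 0.238 and 0.187). Paralogs of the identity factors had 22 of 29 testable, with 2 lower, *Ehmt2* and *Ebf1*, and 3 higher, *Irf8*, *Tbx2* and *Irf5*. *Ebf1*, which shares its DNA motif with EBF2, gave 2.70, 3.03 and 2.78 in WT and 2.39, 2.14 and 2.43 in KO mice, lower in every KO mouse by -0.52 (SE 0.17, adjusted p = 0.208 by limma) beside the -0.005 of *Ebf2*. *Ebf3* differed by -0.18 and *Cebpd* by -0.16, both short of the test. *Irf8*, a factor of macrophages and lymphocytes, was 0.64 higher (adjusted p = 0.126 by limma), *Tbx2* 0.63 higher, and *Irf5* 0.72 higher on its brightest unmarked probe. With marked spots kept a brighter *Irf5* probe was used and the difference was -0.73. The macrophage and dendritic cell list means were -0.44, -0.40 and -0.11 in WT and -0.25, 0.15 and -0.03 in KO mice, with overlapping groups. *Irf8* was higher in every KO mouse. So were the lymphocyte list means given above, but not most of the lymphocyte markers that were above background on every array. The part of either cell type in the *Irf8* value was not tested.

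Known targets of the identity factors had 12 of 21 genes testable, with 4 lower (33.3%) and 0 higher by limma (median -0.43). The mean was lower in KO for 7 and higher for 5. Among the latter were *Agt* and *Retn*, which are also white adipocyte markers (differences 0.46 and 0.46, neither called, *Retn* from 2 mice per group). With marked spots left out, leaving out a mouse left 10 to 12 genes testable and gave 2 to 5 lower and 0 to 1 higher. Of these fits, those without KO mouse 1 or KO mouse 2 gave 2 lower. The median was -0.10 without WT mouse 1 and -0.20 without WT mouse 2. The 4 were the proton channel gene *Otop1* at -0.64, *S100b* at -0.50, *Cpt1b*, which admits fatty acids to mitochondria, at -0.58 and the respiratory chain subunit *Cox7a1* at -0.78, the last from 2 mice per group (limma adjusted p = 0.167, 0.183, 0.260 and 0.282). With all 3 mice kept *Cox7a1* was -0.50 with overlapping groups and an unadjusted p of 0.084 by limma, so it was not called. For 6 of the 12 every KO value was below every WT value, and for 6 of the 20 upstream regulators, against 17.2% of all genes. The targets *Cox7a1*, *Letmd1* and *Adrb3* and the regulators *Rxrg*, *Thrb* and *Nr4a1* among these had only 2 values per group. The regulators *Esrra* and *Nfia* had 2 values in 1 group. Every KO value was above every WT value for 1 target, *Retn* with 2 values per group, and 1 regulator, *Foxc2*, against 13.8% of all genes. Groups of 2 values separate more easily than groups of 3. With marked spots kept *Letmd1*, *Adrb3* and *Esrra* stayed lower in every KO mouse, while *Cox7a1* and *Nr4a1* overlapped. *Nfia* was then read on a brighter probe, where the groups overlapped at a difference of -0.11. After quantile normalization 1 target was lower and 2 were higher, with a median of -0.21. With marked spots kept 20 targets were testable, 6 lower and 0 higher, with a median of -0.37 against -0.06 for all genes. Leaving out a mouse there gave 4 to 8 lower, 0 to 1 higher and medians of -0.51 to -0.26. With all mice and marked spots kept *Ucp1*, the uncoupling protein of brown fat, gave 5.51, 5.85 and 5.53 in WT and 5.10, 5.0 and 5.65 in KO mice. KO mouse 3 lay within the WT range (difference -0.38, adjusted p = 0.402 by limma). *Cidea*, a lipid droplet protein, differed by -0.33 (adjusted p = 0.452 by limma), and both were nearer 0 after quantile normalization, at -0.08 and -0.04. No gene of the 5 lists passed the adjusted threshold by limma. Of the genes called at an unadjusted p under 0.05 over the whole array, 55.5% were higher in KO, and this share was 45.2% after quantile normalization and 41.4% after normexp background correction.

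**Figure D4:**
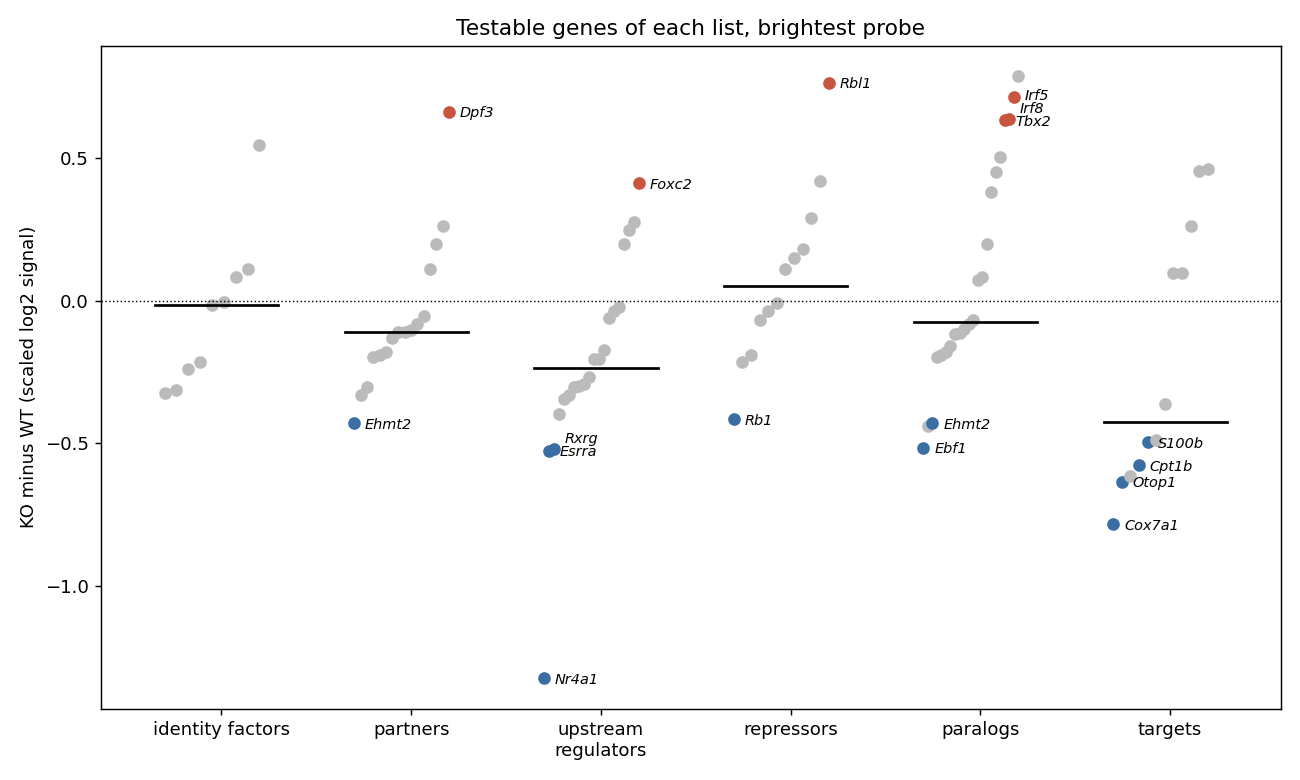
KO minus WT difference in scaled log2 signal (vertical axis) of every testable gene in 6 lists (horizontal axis), on the brightest probe; blue and red points are genes lower or higher at an unadjusted p under 0.05, grey points are the rest, and black lines are list medians. The identity factors hold no coloured point and a median of -0.02, and the targets hold 4 blue points and a median of -0.43.

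Across the processing settings tried, *Prdm16* stayed above 0 (0.11 to 0.92), and *Zfp516* (-0.55 to -0.03), *Cebpb* (-0.54 to -0.08), *Ehmt1* (-0.29 to -0.08) and *Ppargc1b* (-1.38 to -0.29, marked spots kept) stayed below it. *Cebpa* ran from 0.00 to 0.23. *Ebf2*, *Zic1* and *Tbx15* took both signs, as did *Irf4* when its opposing probes were averaged (0.07). In no setting did a member pass the adjusted threshold.

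**Figure D5:**
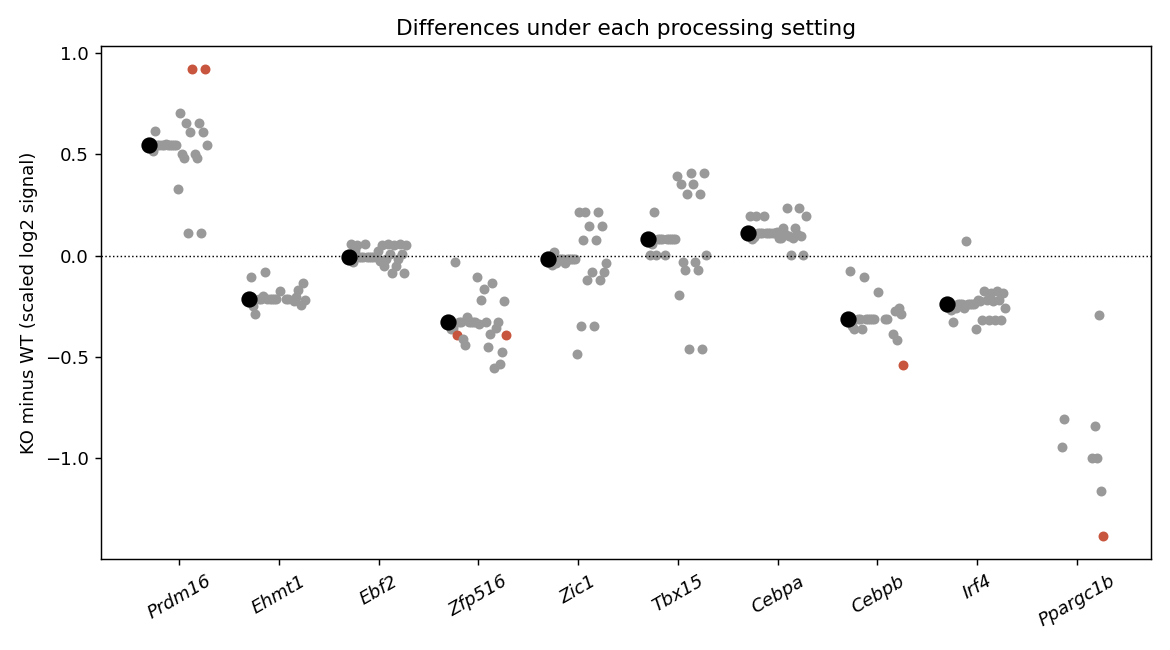
KO minus WT difference in scaled log2 signal (vertical axis) of each identity factor (horizontal axis) under every processing setting; large black points are the setting used in the text, grey points the alternatives, and red points those with an unadjusted p under 0.05. Red points occur for *Prdm16* (0.92), *Zfp516* (-0.39), *Cebpb* (-0.54) and *Ppargc1b* (-1.38).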

How the data were processed

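Total RNA of BAT from 3 WT and 3 KO mice was hybridised to Agilent 1-colour mouse arrays, all on 1 slide. The authors deposited scanner tables of spot intensity, background-subtracted by Agilent Feature Extraction (version 10.7 per the labels, while the file headers name a later one), and a table of processed log2 values for 27497 probes whose normalization is not stated. The intensity columns were taken as log2, each array was centred on its 75th percentile over non-control spots, spots marked as non-uniform or population outliers were left out, and spots of a probe were averaged. A probe was tested if well above background on at least 3 arrays with at least 2 unmarked values per group (31238 probes). WT and KO were compared two-sided with limma 3.58.1 in R 4.3.3 (lmFit, eBayes) over all tested probes with Benjamini-Hochberg adjustment, and a call means an unadjusted p under 0.05. Each gene was read on its brightest testable probe. The fit was tested on simulated data. Probe accessions were matched to RefSeq symbols.

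Named were the 10 genes, 9 relatives and partners whatever their value (*Pparg*, *Ppargc1a*, *Ucp1*, *Cidea*, *Ebf1*, *Ebf3*, *Cebpd*, *Ehmt2*, *Mecom*) and, per list, up to 4 called genes with the smallest p. *Mir22hg* and the second probes of 3 genes were added. The genes and lists were chosen with earlier results of these data known. Alternatives varied the scaling, background, probe filter, marked spots, test (SAM over 20 label assignments or Student's t-test), covariates and mice. Arrays WT 1 and WT 2 were in slide row 1 and the other 4 in row 2.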

Additional observations from a re-analysis of the deposited data

How the results depend on the processing

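The count of lower members was 1 instead of 0 in the authors' processed values, with or without marked spots (*Zfp516*, where its dimmer probe alone is listed). Leaving out 1 mouse, with or without marked spots, gave 0 to 2 lower members and 0 to 1 higher: *Prdm16* without KO mouse 3, and *Cebpb* and *Ppargc1b* without KO mouse 3 with marked spots kept. Over all genes the lower count of 1087 was 699 with no filter on dim probes, 247 with the slide row as a block (a fit that sets WT mouse 3 alone against the KO mice, since row 1 holds WT mice 1 and 2 only, and assumes that it varies like the others) and 588 to 1762 over the arrays left out (588 without WT mouse 2, 1762 without KO mouse 3 with marked spots kept); the higher count of 1358 was 865 after normexp, 719 with the row block and 972 to 1297 over the arrays left out. The genes passing adjustment were 15 in the fit used, 0 by SAM, 1 by Student's t-test and 193 with trended robust moderation. Without a filter the median of all genes moved from -0.03 to 0.14.

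*Ebf2* changed sign after quantile normalization (0.0551, also with marked spots kept), normexp (0.0299), in the processed values (0.0544) and with the row block (0.0215), and ran from -0.0843 to 0.0597 over the arrays left out. *Zic1* was 0.0204 after normexp and 0.22 with the muscle covariate, -0.48 with the row block, and -0.35 to 0.22 over the arrays left out. *Tbx15* was -0.19 with the muscle covariate and -0.46 (without KO mouse 2) to 0.41 over the arrays left out. *Irf4* was 0.0708 as the mean of its probes. *Mecom* was -0.0435 after quantile normalization, -0.0434 in the processed values, and -0.15 after normexp. *Cebpd* was 0.26 with the row block and -0.366 to 0.0368 over the arrays left out. *Irf5* was -0.73 with marked spots kept, -0.66 with quantile normalization as well, and -0.91 to 0.84 over the arrays left out, because marks decide which of its probes is read. With the row block, which could test 7 members, *Prdm16* was 0.33, and 0 of 11 targets (median -0.03) and 0 of 15 upstream regulators were lower. Over the arrays left out, with marked spots dropped, 0 to 2 partners, 0 to 1 repressors and 1 to 2 paralogs were lower, and 0 to 1, 1 and 2 to 4 were higher. The cause of the other changes was not tested. Leaving out a mouse with marked spots kept, and the processed values without marked spots, were chosen after seeing the data. No paired analysis was possible because replicate numbers only name mice in accession order.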
